A study of Mus musculus with 2 samples.

Results

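The fatty acid elongases (Elovl1 to Elovl7) and the Fads desaturases (Fads1, Fads2 and Fads3) were followed in interscapular brown adipose tissue (iBAT) of WT and Ucp1-KO mice. The members were taken by gene symbol, and all 10 were found among the 27179 genes listed in both count tables. The make-up of the elongase transcripts differed between the libraries. Elovl6 was at 48.3% of its WT level in the Ucp1-KO library, Elovl3 was 5.75-fold higher (5.34 to 6.19), and Fads1 and Fads2 were at 74.98% and 70.9% of WT while Fads3 was level. The Fads1 and Fads2 values lay near the lower quartile of all examined genes.

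The WT library came from C57BL/6N wild-type mice and the Ucp1-KO library from C57BL/6N mice labelled as Ucp1 knockout. Both groups were 20 days old, untreated and described as male by the submitters, and the tissue of 3 animals was pooled for each library. There was 1 library per genotype, so no value has a replicate error, no test between genotypes was possible, and all intervals cover counting error only. The knockout was not restricted to 1 cell type and the samples were whole tissue, so every cell type of the depot contributed RNA.

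Elongases catalyse the first, rate-setting condensation of the microsomal elongation cycle, in which malonyl-CoA adds carbons to a fatty acyl-CoA, and a reductase, a dehydratase and a second reductase complete the round. Elovl6 lengthens palmitate-type saturated and monounsaturated chains, Elovl1, Elovl3 and Elovl7 make longer saturated and monounsaturated chains, Elovl2 and Elovl5 act on polyunsaturated chains, and Elovl4 makes the very longest ones. Fads2 and Fads1 introduce double bonds on the path from dietary essential fatty acids to arachidonic and docosahexaenoic acid, and Fads3 acts on sphingoid bases. In brown fat Elovl3 is known as a cold-induced gene and Elovl6 as a lipogenic gene downstream of SREBP-1c.

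The coding sequences show how the members are related, and are given first. Whether they bear on the ratios below was not tested. The histidine box, which elongases need for catalysis, was located in the reading frame of the canonical GENCODE transcript of each elongase and occurred exactly once in each. In the stretches below the codons of the box are in capitals.
Elovl3: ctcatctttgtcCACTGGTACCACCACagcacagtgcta
Elovl6: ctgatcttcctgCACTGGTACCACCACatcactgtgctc
Elovl1: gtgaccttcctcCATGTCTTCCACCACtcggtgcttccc
Elovl7: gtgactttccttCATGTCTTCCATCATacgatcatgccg
Elovl2: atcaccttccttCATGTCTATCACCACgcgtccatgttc
Elovl5: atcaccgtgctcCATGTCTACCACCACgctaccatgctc
Elovl4: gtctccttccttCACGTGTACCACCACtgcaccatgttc

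Elovl3 and Elovl6 had the same 15 bases in the box, a stretch that no other elongase had. Over the whole coding sequence they were 61.9% identical, close to the 61.8% of Elovl3 and Elovl5. Elovl2 and Elovl5 were 66.4% and Elovl1 and Elovl7 65.5% identical. The desaturases are shown at the third of their histidine boxes, where front-end desaturases carry a glutamine codon at the start of the motif.
Fads1: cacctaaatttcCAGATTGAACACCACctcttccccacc
Fads2: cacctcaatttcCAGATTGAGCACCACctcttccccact
Fads3: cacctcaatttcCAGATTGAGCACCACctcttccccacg

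Fads2 and Fads3 were identical over the box and 71.1% identical over the coding sequence. The longest run of bases shared by any 2 members' transcripts was 54, between Fads2 and Fads3, and the next longest was 23, between Elovl2 and Elovl5.

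The libraries held 52950913 counts for WT and 53216727 for Ucp1-KO. The targeted gene, Ucp1, was reduced from 366473 counts in WT to 37853 in the knockout (log2 ratio -2.98, 95% counting interval -2.997 to -2.95). Ucp1 RNA was thus lower but still detected in the Ucp1-KO library. The sex-linked RNA went against the description as male: all 4 Y-linked genes examined had 0 counts in WT and 491 to 3446 in Ucp1-KO, and Xist, which is expressed from the inactive X of females, had 32380 and 16478. The WT library thus held no detected Y-linked RNA of these genes, and the Ucp1-KO library held both kinds. All 14 skeletal muscle markers had log2 ratios at or below -2 (median -2.66), and together they made up 0.615% of the WT counts and 0.0737% of the Ucp1-KO counts, with none at 0. All 8 endothelial markers were below 0 on the log2 scale (median -0.87). The 11 adipocyte markers had log2 ratios of -0.22 to 0.84 with a median of 0.25. Together these marker genes made up 1.84% of the WT and 1.86% of the Ucp1-KO counts, so adipocyte RNA was present in both libraries. They are general adipocyte markers and do not check the depot. The part that sex, muscle or endothelial RNA has in the values below was not tested, and with 1 library each the genotype and the sex-linked difference cannot be told apart.

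Counts were divided by median-of-ratios size factors (normalised read counts), and the difference between libraries is given as the log2 ratio of Ucp1-KO to WT with 0.5 added to each normalised count. The 15212 genes whose normalised counts averaged 10 or more were examined, and a log2 ratio of 1 or more in size is called a 2-fold difference. Of the examined genes, 17.0% differed at least 2-fold in either direction, 7.42% reached this size upward in Ucp1-KO and 9.55% downward. All 10 members reached the count minimum, but Elovl2 did so only through the Ucp1-KO library. Elovl2 and Elovl3 were at least 2-fold higher, Elovl6 was at least 2-fold lower, and 7 members lay within 2-fold. For Elovl3 and Elovl6 the whole counting interval lay beyond 2-fold, as it did for 6.44% of all examined genes. Thus 3 of 10 members differed 2-fold against a background of 17.0%, and 6 of 10 had a log2 ratio above 0 against 49.9% of all examined genes. With 10 genes neither count is read as particular to the family.

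**Figure D1:**
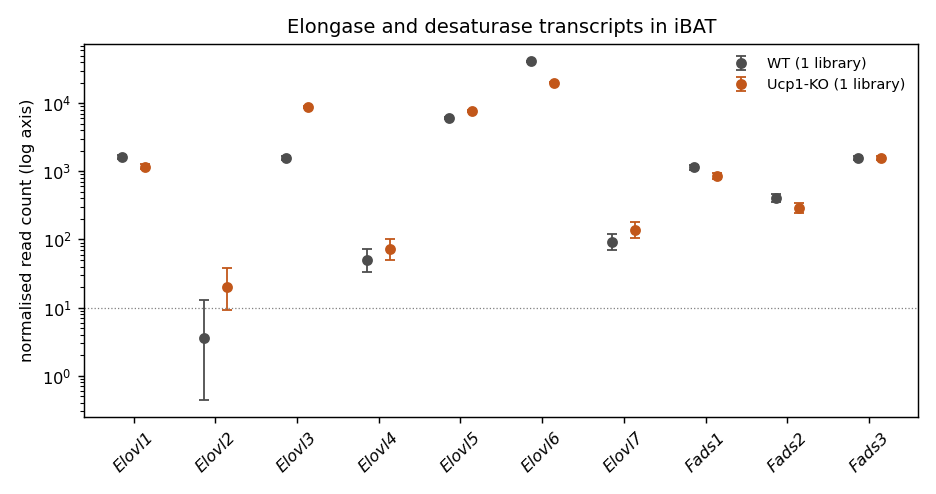
Normalised read counts (log axis) of the 10 members in the WT and the Ucp1-KO library, 1 library each, with exact 95% Poisson intervals on read pairs as bars. Elovl3 went from 1551 to 8917 and Elovl6 from 41280 to 19936, while Elovl2 lay near the count minimum of 10 (dotted line).

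Elovl6 was the most abundant member in WT and the only one at least 2-fold lower in Ucp1-KO. Elovl6 (Entrez gene 170439; GRCm39 chromosome 3, 129326004 to 129432144, plus strand, 4 exons in the canonical transcript) had 45797 counts in WT (95% Poisson interval 45206 to 46394) and 17969 in Ucp1-KO (17599 to 18345). After normalisation these were 41280 and 19936, a log2 ratio of -1.05 (-1.09 to -1.01). The intervals of the libraries did not overlap, and the Ucp1-KO level was 48.3% of WT (47.1% to 49.5%). In whole tissue fewer cells that express the gene and less RNA per cell cannot be told apart. Scaled by the reference genes that the study used for its PCR (taken here as Tbp, Hsp90ab1 and Gtf2b), the log2 ratio was -0.96, just within 2-fold, and scaled by the adipocyte markers it was -1.37.

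Elovl3 showed the opposite difference and the largest log2 ratio among the members. Elovl3 (Entrez gene 12686; chromosome 19, 46119917 to 46124133, plus strand, 4 exons) had 1721 counts in WT (1608 to 1840) and 8037 in Ucp1-KO (7790 to 8289). The normalised counts were 1551 and 8917, a log2 ratio of 2.52 (2.42 to 2.63), and the gene stood at rank 186 from the top of the 15212 examined genes. The ratio was between 2.20 and 2.61 under every other scaling tried. The last exon of Elovl3 overlaps 415 bases of the opposite-strand gene Pitx3, which had 28 counts in WT and 25 in Ucp1-KO. Elovl3 is also known as a gene with higher expression in male than in female liver, and the part of the Y-linked and Xist difference in the Elovl3 value was not tested.

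**Figure D2:**
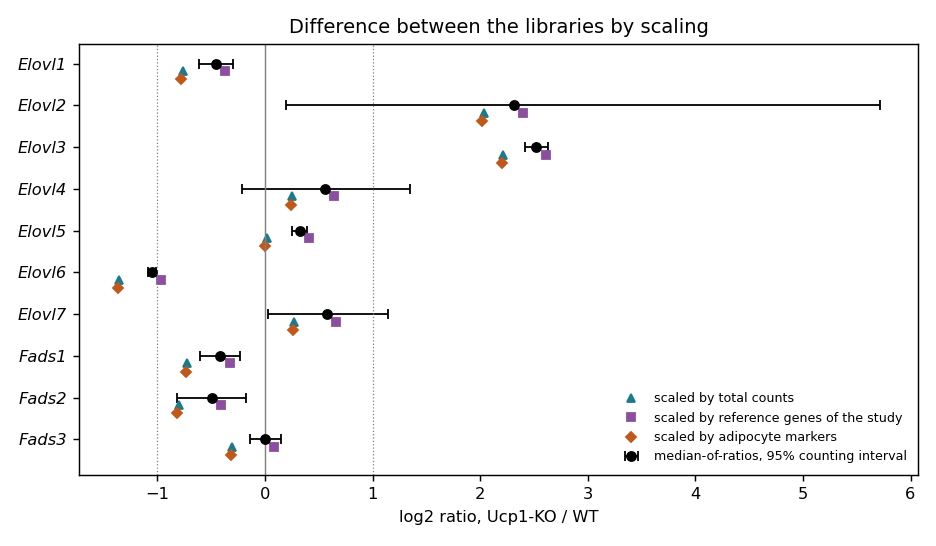
Log2 ratio of Ucp1-KO to WT for each member, with the 95% counting interval for median-of-ratios scaling (black) and the value under 3 other scalings (coloured symbols, drawn below each point). Elovl3 stayed above 2 and Elovl6 near or below -1, whereas Elovl5 moved to about 0 and Fads3 from 0 to about -0.3 with total counts or adipocyte markers.

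A comparison between members of the same library does not depend on how the libraries were scaled. The log2 ratio of Elovl3 exceeded that of Elovl6 by 3.57 (95% counting interval 3.46 to 3.69). Per kb of transcript, Elovl6 was 8.20 times Elovl3 in WT, and Elovl3 was 1.45 times Elovl6 in Ucp1-KO. The order of the pair in Ucp1-KO depended on the length used: per coding length Elovl6 held 54.1% and Elovl3 23.8% of the elongase signal in Ucp1-KO, so that Elovl6 stayed ahead. On both lengths the share of Elovl6 was lower and that of Elovl3 higher in Ucp1-KO.

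The elongase pool can be described as each gene's share of the summed elongase counts per kb of transcript. Elovl6 made up 64.3% in WT (63.5% to 64.95%) and 29.0% in Ucp1-KO (28.4% to 29.7%). Elovl3 made up 7.83% in WT (7.35% to 8.34%) and 42.1% in Ucp1-KO (41.2% to 43.0%). On this scale the order of the pair was reversed between the libraries, and the intervals of each share lay far apart. Elovl5 held 19.6% and 22.9%, and Elovl1 held 8.01% and 5.46%. Per coding length Elovl5 held 10.9% and 18.4%, and Elovl1 was level at 3.07% and 3.03%. The lower Elovl1 share in Ucp1-KO thus depended on the length used. Elovl2, Elovl4 and Elovl7 together contributed little, with no share above 0.23% in either library. The summed elongase level was 10474 normalised counts per kb in WT and 11197 in Ucp1-KO. Without division by length the elongase sum was 50654 and 37852 normalised counts, so the direction of the sum depended on the length correction. Per kb the log2 ratio of the sum was only 0.096. With total counts the median of all examined genes was -0.31, so the direction per kb also depended on the scaling.

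**Figure D3:**
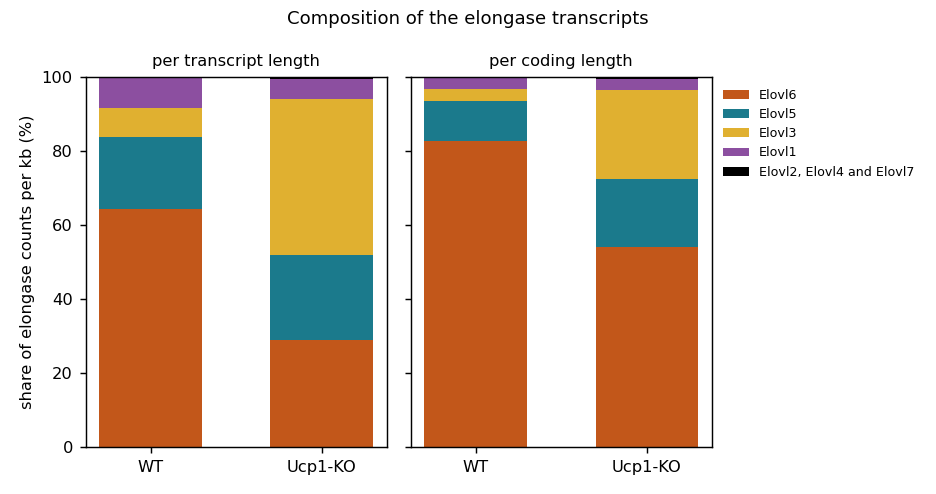
Share of each elongase in the summed elongase counts per kb (percent), in WT and Ucp1-KO, with counts divided by transcript length (left) or coding length (right). Per transcript length Elovl6 held 64.3% in WT and 29.0% in Ucp1-KO and Elovl3 7.83% and 42.1%, and per coding length Elovl6 held 82.7% and 54.1% and Elovl3 3.06% and 23.8%.

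The remaining elongases of saturated and monounsaturated chains differed less. Elovl1, a broadly expressed elongase that supplies ceramide synthesis with very long chains (chromosome 4, 118284346 to 118290150, plus strand), had 1777 counts in WT and 1052 in Ucp1-KO. Its log2 ratio was -0.46 (-0.61 to -0.30), beyond counting error and within 2-fold, and its difference from Elovl6 was 0.59 (0.43 to 0.75). Among all examined genes this ratio stood at percentile 22.5, near the lower quartile of -0.39. Elovl1 overlaps 53 bases of Cdc20 on the opposite strand, a gene with 130 and 59 counts. Elovl7 (chromosome 13, 108350937 to 108423639, plus strand) had 103 and 125 counts (0.58, 0.02 to 1.14). Elovl4, the elongase of retina and skin (chromosome 9, 83660744 to 83688430, minus strand), had 55 and 66 counts (0.56, -0.21 to 1.35). The Elovl4 interval included 0 when computed on read pairs, but not when each deposited count was taken as independent (0.02 to 1.11). With total counts the Elovl7 interval also included 0 (-0.28 to 0.83).

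Because Elovl3, Elovl4 and Elovl7 are also genes of skin and its sebaceous glands, markers of those cells were read beside them. Of 8 keratinocyte markers, Krt5, Krt14 and Dsg3 were at 0 in both libraries, and the list made up 0.000933% of the WT and 0.000552% of the Ucp1-KO counts. Krt10 (119 and 93 counts), Sfn (257 and 178) and Trp63 (107 and 23) were the keratinocyte markers examined, with log2 ratios of -0.06, -0.23 and -1.90. Of 7 sebocyte markers Awat1 was at 0 in both libraries, Mc5r had 42 counts in WT and 0 in Ucp1-KO, and Krt79 had 342 and 233. Awat2 had 23 and 34 counts (0.85, -0.30 to 2.08), Far2 had 105 and 93 (0.12, -0.48 to 0.72), Scd3 had 1 and 15, and Dgat2l6 had 2 and 0. The 4 examined sebocyte markers were split, 2 above and 2 below 0, and the list summed to 464.2 normalised counts in WT and 416.04 in Ucp1-KO, of which Krt79 was 308.3 and 258.5. The part of skin or sebaceous RNA in the elongase values was not tested.

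The genes of the polyunsaturated branch differed in both directions. Elovl5, which lengthens the products of Fads2 (chromosome 9, 77818113 to 77891802, plus strand), had 6740 counts in WT and 6851 in Ucp1-KO, or 6075 and 7601 after normalisation. Its log2 ratio was 0.32 (0.25 to 0.39), but with total counts it was 0.02 (-0.05 to 0.09), so whether Elovl5 was higher depended on the scaling. Elovl2, which makes the precursor of docosahexaenoic acid in liver (chromosome 13, 41335857 to 41374112, minus strand), had 4 counts in WT and 18 in Ucp1-KO. The WT value lies under the limit of 6 counts (3 read pairs) that a count of 0 allows, and the log2 ratio of 2.32 had an interval of 0.20 to 5.72. At this depth the size of the Elovl2 difference cannot be given.

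The desaturase genes lie side by side on chromosome 19, and their ratios were not equal. Fads1, which makes arachidonic acid from its direct precursor (10160167 to 10174241, plus strand), had 1269 counts in WT (1172 to 1372) and 773 in Ucp1-KO (697.8 to 854), a log2 ratio of -0.42 (-0.60 to -0.23). Fads2, which starts the desaturation of linoleic and alpha-linolenic acid (10038130 to 10079203, minus strand), had 455 and 262 counts (-0.50, -0.82 to -0.18). Fads3 (10018253 to 10037928, plus strand) had 1758 and 1429 counts, which were 1585 in both libraries after normalisation, a log2 ratio of 0.00 (-0.14 to 0.14). Fads1 and Fads2 were thus lower beyond counting error and Fads3 was level, but with total counts Fads3 was lower too, at -0.31 (-0.45 to -0.16). The lower quartile of all examined genes was -0.39, and Fads1 and Fads2 stood at percentiles 24.1 and 21.1. Ratios this low were thus common among all genes and are not read as particular to these members.

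Compared within the libraries, the log2 ratio of Fads1 differed from that of Fads3 by -0.42 (-0.65 to -0.18) and that of Fads2 by -0.50 (-0.84 to -0.16). Fads1 and Fads2 differed by 0.08 with an interval of -0.28 to 0.44, which leaves a difference of either sign possible. Elovl5 exceeded Fads1, which acts at another step of the polyunsaturated path, by 0.74 (0.54 to 0.93). Fads3 had the largest share of the desaturase counts per kb, 48.2% in WT (45.9% to 50.6%) and 55.8% in Ucp1-KO (52.99% to 58.6%), and Fads2 the smallest, 14.6% and 11.96%.

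Ordered by normalised counts per kb of transcript, the WT library ran Elovl6 (6730), Elovl5 (2052), Elovl1 (839), Elovl3 (820), Fads3 (418), Fads1 (322), Fads2 (126), Elovl7 (17.1), Elovl4 (15.9) and Elovl2 (0.886). The counting intervals of Elovl1 and Elovl3 overlapped, as did those of Elovl7 and Elovl4. In Ucp1-KO the order began with Elovl3 (4715), Elovl6 (3250) and Elovl5 (2567) and went on with Elovl1 (611), Fads3 (418), Fads1 (242), Fads2 (89.6), Elovl7 (25.5), Elovl4 (23.4) and Elovl2 (4.91). Only Elovl7 and Elovl4 overlapped with a neighbour there. On this scale Elovl3 went from the fourth place, level with Elovl1, to the first, and the other 9 genes kept their order. Per coding length Elovl6 stayed ahead of Elovl3 in Ucp1-KO (54.1% against 23.8% of the elongase signal).

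**Figure D4:**
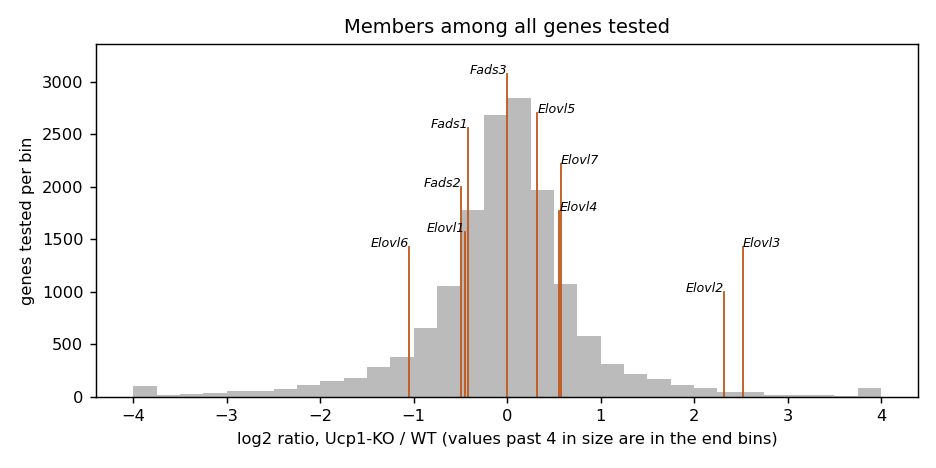
Number of examined genes in each bin of the log2 ratio of Ucp1-KO to WT (grey bars), with the members marked by vertical lines whose height has no meaning. Of the 10 members 7 lie within the central part between -1 and 1, Elovl6 is at -1.05, and Elovl3 is at 2.52 in the upper tail.

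The partner enzymes that complete each elongation round differed little. Of 7 listed genes, 1 was at least 2-fold lower and 6 lay within 2-fold, with a median log2 ratio of 0.01 beside 0.00 for all examined genes. With total counts these medians were -0.30 and -0.31. Hsd17b12, the ketoacyl-CoA reductase, had 19721 and 13711 counts (-0.22, interval -0.27 to -0.18), and Tecr, the enoyl-CoA reductase, had 7396 and 6052 (0.01, -0.06 to 0.08). Among the dehydratases Hacd2 was at 0.50, Hacd3 at 0.28 and Hacd1 at 0.13, while Hacd4, with 63 and 18 counts, was at -1.48 (-2.76 to -0.40). Tecrl had 40 and 19 counts and was not beyond counting error (-0.76, -2.06 to 0.41). The log2 ratio of Elovl6 was lower than that of Hsd17b12 by 0.83, with an interval of the difference of -0.88 to -0.77.

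Most genes that make the substrates of elongation had lower ratios than Elovl6. Of 7 genes for palmitate and malonyl-CoA supply, 5 were at least 2-fold lower and none was above 0, with a median log2 ratio of -1.87. Among all examined genes 9.55% were at least 2-fold lower. Fasn, the fatty acid synthase that makes palmitate, was at -2.11, Acaca, which makes cytosolic malonyl-CoA, at -1.87, and Acly, which makes cytosolic acetyl-CoA, at -1.93. The citrate carrier Slc25a1 (-2.25) and malic enzyme Me1 (-1.38) were lower as well, and Acss2 (-0.84) and Acacb (-0.53) lay within 2-fold. Elovl6 exceeded Fasn by 1.06 (1.02 to 1.10) and Acaca by 0.82 (0.78 to 0.87) on the log2 scale. Fasn was 3.01 times Elovl6 per kb in WT and 1.45 times in Ucp1-KO.

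Among the other desaturases, the stearoyl-CoA desaturases that act on the saturated products of Fasn and Elovl6 were lower. Scd1 had 290301 counts in WT and 88709 in Ucp1-KO (log2 ratio -1.41, -1.43 to -1.40), and Scd2 had 7313 and 1557 (-1.93, -2.05 to -1.82). Elovl6 exceeded Scd1 by 0.36 (0.32 to 0.40). Scd3 (1 and 15 counts), Scd4 (11 and 0) and Fads6 (2 and 0) were too low to examine, and the Scd genes are close copies whose reads may be split uncertainly. The dihydroceramide desaturase Degs1 was at -0.04 (-0.13 to 0.06) and Degs2 at -0.49 (-0.89 to -0.10). Of the electron donors for desaturases, none of the 5 examined differed 2-fold. Cyb5a was at 0.41, Cyb5b at 0.30, Cyb5r3 at 0.15, Cyb5r1 at -0.02 and Cyb5r4 at -0.59, and Cyb5r2 had 14 and 4 counts.

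**Figure D5:**
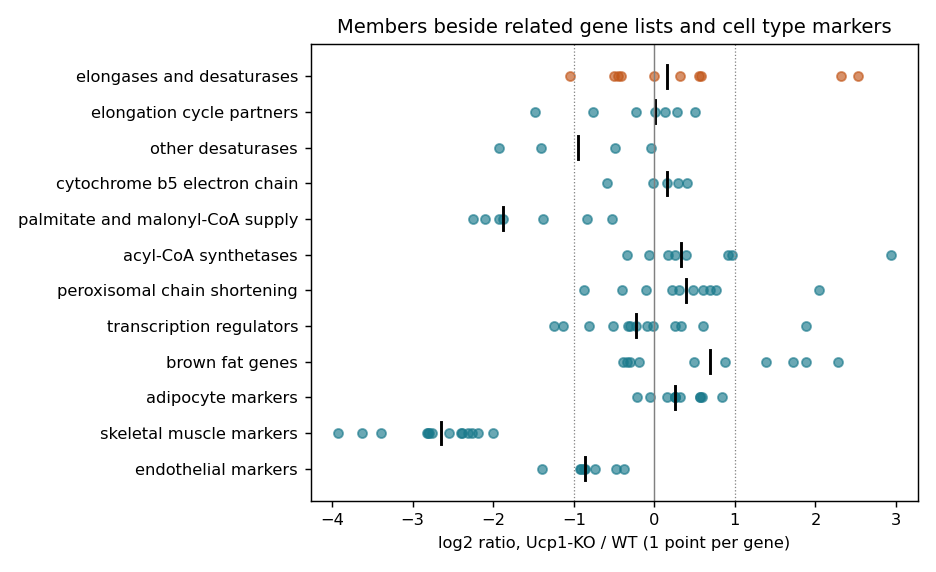
Log2 ratio of Ucp1-KO to WT for every examined gene of the elongase and desaturase families (orange), of related gene lists and of cell type markers (blue), with the median of each list as a black bar. The palmitate and malonyl-CoA supply genes have a median of -1.87 and the elongation cycle partners of 0.01, while the members spread from -1.05 to 2.52.

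Among the regulators of lipid synthesis and oxidation, 2 activators of lipogenic genes were lower and 1 thermogenic coactivator was higher by 2-fold or more. The other 10 of 13 listed regulators lay within 2-fold, and the median of the list was -0.23. Among all examined genes 17.0% differed at least 2-fold. Srebf1, which encodes the SREBP-1 activator of lipid synthesis, had 7871 and 2907 counts (-1.14, -1.23 to -1.05). Mlxipl, which encodes the glucose-sensing activator ChREBP, had 24565 and 8441 counts (-1.24, -1.29 to -1.19). Elovl6 differed from Srebf1 by 0.09 with an interval of -0.01 to 0.18, and from Mlxipl by 0.19 (0.13 to 0.25). Rxra was at -0.81. Ppargc1a, the coactivator of the thermogenic programme, had 4105 and 12332 counts (1.89, 1.81 to 1.959).

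Genes of active brown fat were read beside Elovl3. Of 10 such genes, 4 were 2-fold or more above WT, against 7.42% of all examined genes, and none was 2-fold below it (median 0.69). These were Dio2, the enzyme that activates thyroid hormone (2.28), Ppargc1a (1.89), the fatty acid carrier Fabp3 (1.72) and the transcription factor Prdm16 (1.39), whereas Cox7a1 (-0.19), Cox8b (-0.30), Letmd1 (-0.34) and Otop1 (-0.40), named after their values were seen, had intervals wholly below 0. The median of the list was 0.38 with total counts and 0.37 with adipocyte markers. Elovl3 exceeded Dio2 by 0.25 (0.13 to 0.36) and Ppargc1a by 0.64 (0.51 to 0.76). Slc27a2, which activates very long chain fatty acids, was higher than Elovl3 in its ratio, with 3741 and 23261 counts and a log2 ratio of 2.94 (2.87 to 3.01). Macrophage, Schwann cell and fibroblast markers had medians of 0.53, -0.61 and -0.16. The 8 macrophage markers were split, 5 above and 3 below 0. Their median was 0.22 with total counts, 0.21 with adipocyte markers and 0.25 with a count minimum of 50.

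Genes beside the members on the chromosome were compared next. On chromosome 19 the examined genes before Elovl3 were Nolc1 (0.63) and Pprc1 (1.32), and those after it were Gbf1 (0.30) and 4833438C02Rik (0.81). With median-of-ratios scaling all 4 were above 0 and below Elovl3. Gbf1 had 2637 counts in WT and 2632 in Ucp1-KO, so its sign depended on the scaling. Beside Elovl6 on chromosome 3, Enpep was at 0.35 and Gar1 at 0.56, while the weakly expressed Egf (134 and 25 counts) was at -2.10. Around the desaturase cluster, Fth1 was at 0.39, Rab3il1 at 0.45, Tmem258 at 0.04 and Fen1 at -1.19 (-1.64 to -0.75). At each locus the neighbours thus differed in size or direction from the member beside them.

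The 250 bases before the transcription start were searched on both strands for short motifs, using RefSeq promoter sequences (GRCm38.p6 table) that were found for 8 of the 10 members. Elovl3 and Fads1 had no entry. The sterol response element letters TCACNCCAC, present in 1.05% of all 32851 promoters, were in none of the 10 windows of these 8 members. The CCAAT letters, present in 33.8% of all promoters, were found before Elovl1, Elovl5 and Fads3, and the GC box letters GGGCGG, present in 32.7%, before Elovl1, Elovl2, Elovl4, Elovl7, Fads2 and Fads3. Elovl6 had neither of these motifs in its window. A missing match says only that the letters are not in this window.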

How the data were processed

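RNA-seq of 2 iBAT libraries was analysed, 1 WT and 1 Ucp1-KO. The deposited values are raw counts of reads per gene that the authors made with featureCounts. The submitters' processing notes name Trim Galore, HISAT2 and build mm39. The annotation, the strand setting and the counting of mates were not given in the sources used here. Among genes with 1 to 10 counts, 70.7% (WT) and 73.4% (Ucp1-KO) were even, against 49.9% and 50.2% at higher counts, so intervals were computed on read pairs (counts divided by 2), with a limit of 3 pairs for a count of 0.

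Counts were scaled with DESeq2 1.42.0 size factors (1.11 for WT, 0.901 for Ucp1-KO) in R 4.3.3. Counts have exact Poisson intervals, ratios exact conditional binomial (Clopper-Pearson) intervals, and shares per kb and differences between ratios intervals from the delta method. The calculation was run on simulated counts drawn from the same read-pair counting model that the intervals assume. That run checks the code and cannot check the model. The reads carry no molecular identifiers, so copies made by PCR count more than once and intervals and limits cover counting error only. Lengths and positions are those of GRCm39 in GENCODE vM39 (97.1% of examined genes matched by symbol), with the Ensembl canonical transcript as the length.

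The members, the lists, the naming rule and the alternatives were chosen with earlier results of these data known. Named were Ucp1, all members, all genes of lists of up to 7, the 4 genes with the log2 ratio largest in size of longer lists, and neighbouring genes (some are not reported here), with shorter selections printed where a list is only a marker check. Genes without a symbol (0.156% and 0.121% of counts) were kept. Alternatives were TMM factors (edgeR 4.0.16), other scalings, a pseudocount of 5, other count minimums, other lengths and intervals on the counts as deposited.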

Additional observations from a re-analysis of the deposited data

How the results depend on the processing

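No paired analysis was possible because there is only 1 library of each kind, and none could be left out in turn. Over all genes the median log2 ratio was -0.31 when scaled by total counts and -0.33 by the adipocyte markers. Under them Elovl3 was at 2.22 and 2.20, Elovl6 at -1.36 and -1.37, and the median of the 10 members turned from 0.16 to -0.14 and -0.16. That median was 0.00073 with a count minimum of 50 and without Elovl2 (chosen after seeing the data), and the summed counts gave -0.41. With the study's reference genes Elovl6 was at -0.96, so 0 members were at least 2-fold lower, as with a log2 ratio of at least 1.5 (0 members). The members at least 2-fold higher were 1, Elovl3, with a count minimum of 50, with the interval wholly beyond 2-fold and without Elovl2. The medians of 4 lists also changed sign, with total counts and with adipocyte markers respectively: the elongation cycle partners (-0.30 and -0.31, and -0.0010 with TMM factors), the adipocyte markers (-0.055 and -0.069), the cytochrome b5 electron chain (-0.15 and -0.17) and the lysophospholipid acyltransferases (-0.051 and -0.065). With the study's reference genes the median of the sebocyte markers changed sign, from -0.065 to 0.022.

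The elongase shares depended on the length. For Elovl6 the WT share was 81.5% without length, 82.7% per coding length and 70.02% over the union of all annotated exons (chosen after seeing the data), and the Ucp1-KO share 52.7%, 54.1% and 29.8%. For Elovl3 the WT share was 3.06%, 3.06% and 9.86%, and the Ucp1-KO share 23.6%, 23.8% and 49.9%. The lower share of Elovl6 and the higher share of Elovl3 in Ucp1-KO held under all of them. Of 60 member ratios recomputed, 46 stayed within their counting intervals and 14 moved. Depth limits Elovl2, Elovl4 and Elovl7.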

Other observations

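Genes that use or remove the products of the elongases were also read. Of the 4 ceramide synthases examined, Cers4, which prefers long saturated chains, was at least 2-fold lower in Ucp1-KO, with 781 and 274 counts (log2 ratio -1.21, -1.503 to -0.93). Cers2, the synthase that takes the very long chains made by Elovl1, was at 0.41 (0.34 to 0.47) while Elovl1 was at -0.46. Cers5 was at -0.41 and Cers6 at -0.94, Cers3 had 2 and 4 counts, and Cers1 was at 0 in both libraries. Of 10 genes for the peroxisomal shortening of very long chains, 1 was at least 2-fold higher and none 2-fold lower (median 0.40). Of all examined genes 7.42% were at least 2-fold higher. The median of the list was 0.09 with total counts and 0.08 with adipocyte markers. Ehhadh was at 2.05, Abcd3 at 0.76 and Abcd2 at -0.88. The difference between Elovl3 and Ehhadh was 0.47 (0.35 to 0.60).

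Of 9 lysophospholipid acyltransferases, which place fatty acyl chains into phospholipids, 2 were at least 2-fold higher and 1 lower (median 0.26). The shares of all examined genes were 7.42% and 9.55%. Mboat2 had 174 and 29 counts (-2.27, -3.20 to -1.47), Mboat1 had 50 and 98 (1.26, 0.55 to 2.03), Lpcat2 had 20 and 39 (1.24, 0.09 to 2.53) and Lpcat1 was at -0.77. Of 8 acyl-CoA synthetases examined, only Slc27a2 differed 2-fold, and Acsl4, which prefers arachidonic acid, was at 0.92 (0.79 to 1.05) while Fads1, the desaturase that makes it, was at -0.42.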
